A study of Gallus gallus with 12 samples.

Results

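Retinal ganglion cells are the projection neurons of the retina, and their axons form the optic nerve. They are the earliest neurons born in the vertebrate retina. The proneural factor ATOH7 makes progenitors competent for this fate, the homeodomain factors ISL1 and POU4F1 to POU4F3 (BRN3A, BRN3B and BRN3C) then carry out differentiation, and the mature cell is recognised by the RNA-binding protein RBPMS, the growth cone protein GAP43 and the axonal neurofilament subunits NEFL and NEFM. Several of these genes are shared with other retinal neurons. ISL1 is also made in bipolar, amacrine and horizontal cells, and neurofilaments are found in horizontal cells too.

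The genes described here were chosen by name: ATOH7, ISL1, POU4F1, POU4F3, RBPMS, GAP43, NEFL and NEFM, 8 names that matched 9 of the 24358 genes in the table. POU4F3 is the name of 2 of them. The gene ENSGALG00000034567 carries an Entrez ID that RefSeq (GRCg7b) names POU4F1L, with BRN3A as a synonym, and it is written POU4F1L from here on. ENSGALG00000043334 carries the ID that RefSeq also names POU4F3 and is written POU4F3. Of the 9 genes, 8 reached the minimum for testing, 10 or more reads in 3 or more libraries, and POU4F3 did not. Over the whole series 15284 genes reached it.

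The study investigated regulatory events behind retinoblastoma driven by MYCN. It compared DMC cells, which are MYCN-transformed chicken retinal cells grown in suspension, with normal retina. The comparison was used for cell cycle and p53 pathway genes, and for which retinal cell type the transformed cells resemble. Old and young lines were compared to see whether the profile holds in long culture. All embryos were White Leghorn chickens. MYCN-T58A DMC cells (DMC4, DMC5 and DMC6) overexpressed human MYCN with the stabilising T58A mutation and had been cultured for over 200 days. Old DMC cells (DMC1, DMC2 and DMC3) overexpressed human MYCN for over 200 days in culture, and young DMC cells (DMC8, DMC9 and DMC10) did so for under 4 weeks. Every line came from a retina electroporated in ovo at E3.5 with piggyBac vectors carrying the MYCN gene together with GFP, and the GFP-positive regions were dissected at E14. The controls were the central regions of 3 unelectroporated retinas at E14. Each group held 3 libraries, 1 per line or retina, and nothing in the labels says whether lines within a group share an embryo. The paper describes the young lines DMC9 and DMC10 as established independently, each from its own electroporated retina. The controls were fresh tissue and the lines were cultured, so transformation, culture and loss of cell types cannot be told apart in any comparison with E14 retina. In bulk RNA, fewer cells of a type and less RNA per cell cannot be told apart either.

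Recovered depth ranged from 20984957 to 35088450 reads a library. The human MYCN and GFP transgenes held 1.54% to 2.70% of the reads in 8 of the 9 lines and 0.528% in DMC5, against 0 MYCN reads and at most 2 GFP reads in each E14 retina. DMC5 also stood apart from the other MYCN-T58A lines over all genes tested, with a correlation of 0.88 with DMC4 and 0.90 with DMC6. Its correlation with the old and young lines was 0.92 to 0.96, highest with the old line DMC3. DMC4 and DMC6 were less like the old and young lines, at 0.85 to 0.88 and 0.87 to 0.90. Values of the MYCN-T58A group are also given without DMC5 where they moved by over 1.5 times or a call changed. DMC6 carries the bracketed name DMEM.1, while DMC4 and DMC5 carry RPMI.1 and RPMI.2 and the growth protocol names RPMI for all lines. A normalized count is the number of reads scaled to a common library size, and at 3 reads, the limit that a count of 0 allows, it stood at 2.64 to 3.58. These limits cover counting error only. A gene was called differentially expressed (DE) when limma's Benjamini-Hochberg adjusted p over the 15284 genes was at most 0.05 and the log2 fold change at least 1 in either direction.

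Of the 8 genes tested, ATOH7, ISL1 and POU4F1 fell and RBPMS rose in each of the 3 DMC groups, while POU4F1L fell in old and young DMC cells only and stood at -2.19 in MYCN-T58A DMC cells (limma adjusted p = 0.148). In MYCN-T58A DMC cells 1 of the 8 rose and 4 fell, where 44.5% of all genes tested were DE (19.6% rose and 24.8% fell). In old DMC cells 1 rose and 5 fell, where 43.8% of all genes were DE (20.3% rose and 23.5% fell). In young DMC cells 2 rose and 5 fell, where 43.5% of all genes were DE (20.5% rose and 23% fell). All these comparisons share the same 3 E14 retinas, and ATOH7, ISL1, POU4F1, POU4F3 and GAP43 are among the ganglion cell markers that the study itself examined in these libraries, so their direction is not independent evidence. ATOH7, ISL1, POU4F1 and POU4F1L reached the minimum for testing only through the E14 retinas, and the lines alone would not have met it. Falls of these genes were thus largely fixed in advance, and the counts above are a description only.

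**Figure D1:**
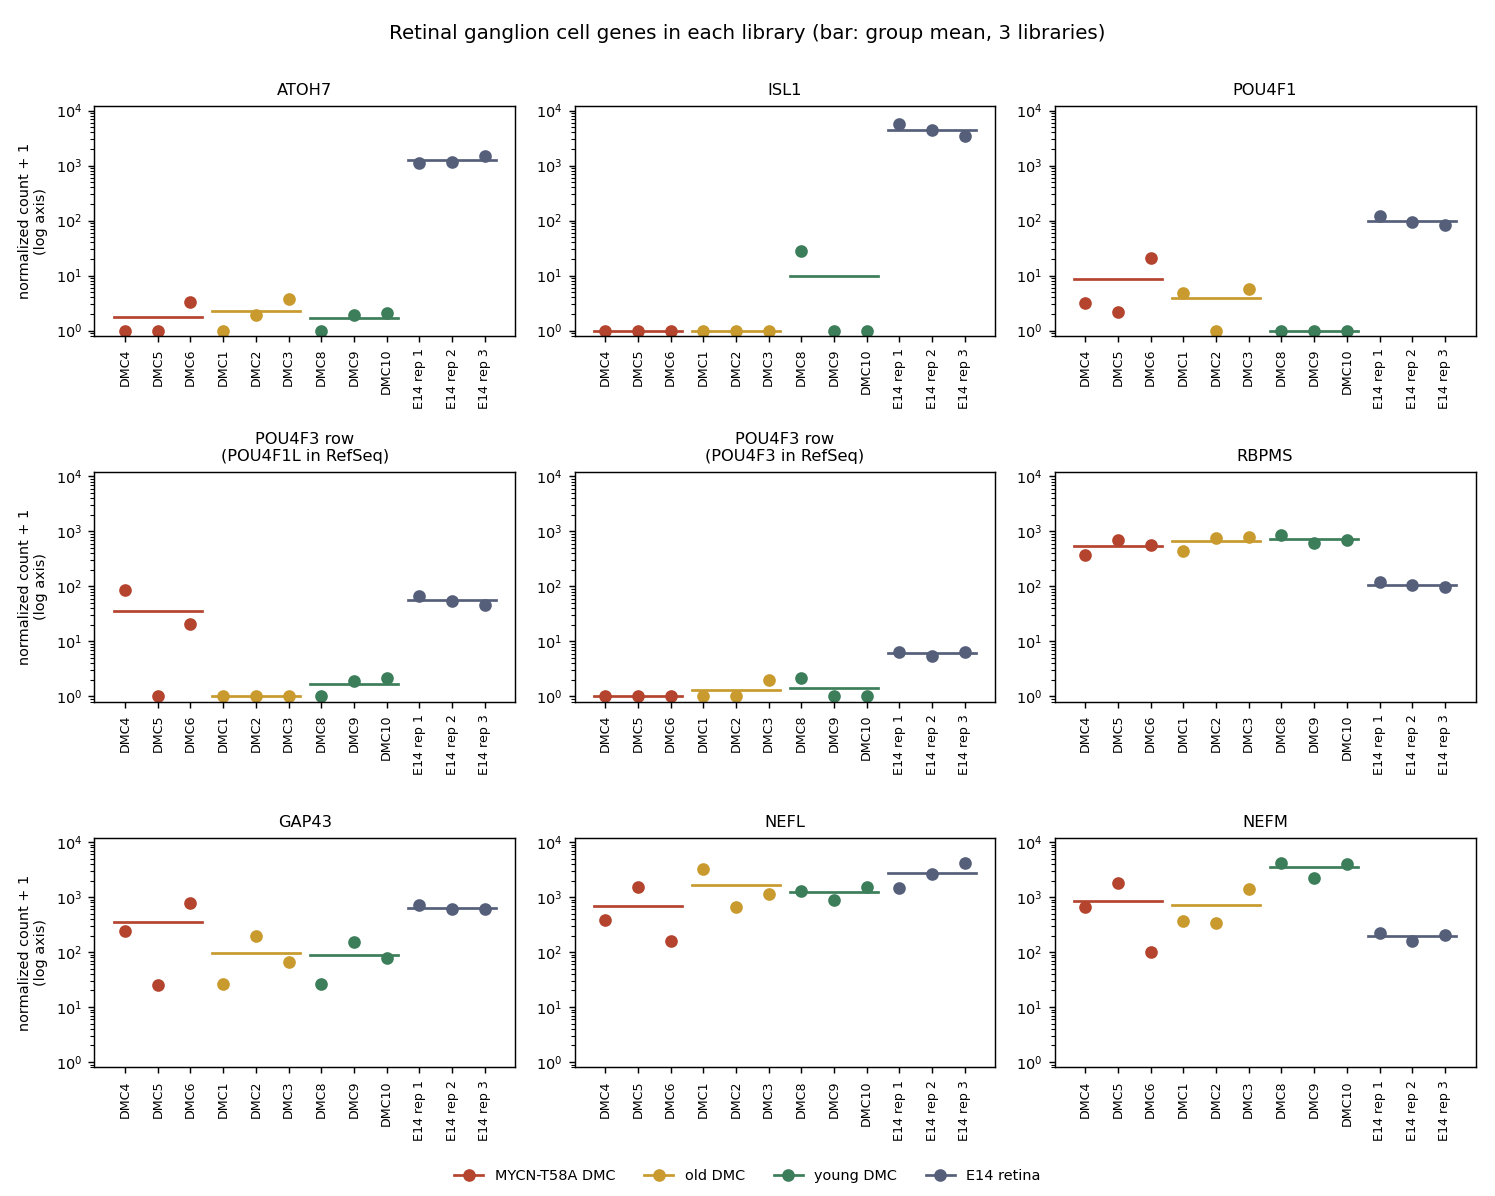
Normalized count plus 1 (log axis) of each ganglion cell gene in each of the 12 libraries, with points for libraries and bars for the means of MYCN-T58A DMC, old DMC, young DMC and E14 retina (3 libraries each). ATOH7 lies at 1136 normalized counts or more and ISL1 at 3524 or more in the E14 retinas, and both at or near 0 in the lines, with ISL1 at 27.1 in DMC8, whereas RBPMS is higher in all 9 lines than in E14 retina.

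ATOH7, the basic helix-loop-helix factor at the head of the program, was almost absent from the lines. It had 0, 0 and 2 reads in MYCN-T58A lines DMC4, DMC5 and DMC6, 0, 1 and 3 reads in old lines DMC1, DMC2 and DMC3, and 0, 1 and 1 reads in young lines DMC8, DMC9 and DMC10, against 1280, 1309 and 1649 reads in the E14 retinas. All 9 lines were below all 3 retinas, as were 25.9% of the genes tested, and 4 lines had no read at all. Its log2 fold change was -9.72 ± 0.66 (SE) in MYCN-T58A, -9.33 ± 0.66 in old and -9.62 ± 0.66 in young DMC cells (limma, adjusted p = 1.40e-06, 2.18e-06 and 1.96e-06, n = 3 libraries a group). Few reads stood behind these values in the lines. The summed reads at matched depth were 1642 times lower in MYCN-T58A lines than in E14 retina (95% exact interval of the counts 454 to 13563), 999 times lower in old lines (390 to 3667) and 1805 times lower in young lines (499 to 14912).

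ISL1, the LIM-homeodomain partner of the POU4F factors, was not detected in most lines. DMC8 had 23 reads and the other 8 lines had 0, against 6299, 4994 and 3876 reads in the E14 retinas. Expressed as normalized counts, ISL1 was at 27.1 in DMC8 and averaged 4505 ± 1038 in E14 retina (SD, n = 3). It was thus at least 1303-fold lower in MYCN-T58A and at least 1586-fold lower in old DMC cells, both set against the floor of 3 reads per library, and 499-fold lower in the mean of young DMC cells (log2 fold change -10.51 ± 1.04, limma adjusted p = 1.47e-05). Without DMC8 no ISL1 read was left in the young lines. Of 13 amacrine and horizontal cell genes, DMC8 was the highest young line in 8 and the lowest in 2, where it was the highest in 35.9% and the lowest in 38.3% of all genes tested. The summed normalized count of these 13 genes was 5362 in DMC8, 6494 in DMC9 and 6235 in DMC10. SLC6A9 alone held 2735, 3786 and 4080 of it, and the other 12 genes summed to 2628, 2708 and 2156. Of these last sums LHX1 held 1583, 2159 and 1811. The part of such cells in the ISL1 reads was not tested.

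The POU4F factors are terminal selectors of ganglion cell subtypes, and they were low in most lines but not in all. POU4F1 had 2, 1 and 17 reads in DMC4, DMC5 and DMC6, 4, 0 and 5 reads in DMC1, DMC2 and DMC3, and 0 reads in each of the young lines, against 133, 107 and 92 reads in the E14 retinas. Every line lay below every E14 retina. POU4F1 fell in MYCN-T58A (log2 fold change -4.23 ± 0.86, limma adjusted p = 0.00171), in old (-5.03 ± 0.86, 5.65e-04) and in young DMC cells (-6.62 ± 0.86, 8.81e-05), the last being at least 31.0-fold lower against the floor. Without DMC5 the value in MYCN-T58A cells was -3.60 (0.00553).

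POU4F1L differed from POU4F1 in that it was detected at retinal level in 1 line. It had 76, 0 and 17 reads in DMC4, DMC5 and DMC6, 0 reads in each old line and 0, 1 and 1 reads in DMC8, DMC9 and DMC10, against 75, 60 and 49 reads in the E14 retinas. As normalized counts, DMC4 stood at 84.7 and DMC6 at 19.5, against 66.6, 52.8 and 44.6 in E14 retina, so that DMC4 was above all 3 retinas and DMC6 below them. POU4F1L fell in old (log2 fold change -5.78 ± 1.21, limma adjusted p = 0.00207, at least 19.2-fold lower against the floor) and in young DMC cells (-5.11 ± 1.21, 0.00426). The value in MYCN-T58A DMC cells was -2.19 ± 1.21 and was not DE (adjusted p = 0.148). It rested on single lines: without DMC4 it was -3.60 (adjusted p = 0.0131), and without DMC5 it was -0.39 (0.635).

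POU4F3, the BRN3C gene, was at the edge of detection, with 1 read in DMC3, 1 read in DMC8 and 0 in the other 7 lines, against 6, 5 and 6 reads in E14 retina. POU4F2 (BRN3B), taken from a list of other ganglion cell regulators and the POU4F gene most closely tied to early ganglion cell differentiation in the mouse, stood at 10.0, 2.39 and 3.45 normalized counts in DMC4, DMC5 and DMC6, at 0 in each old line and at 0, 1.80 and 0 in DMC8, DMC9 and DMC10, against 93.2, 91.6 and 131.8 in the E14 retinas. It fell in all 3 groups (log2 fold change -4.26, -6.71 and -6.22 in MYCN-T58A, old and young DMC cells, limma adjusted p = 1.37e-04, 7.29e-06 and 1.19e-05). POU4F2 reached the minimum for testing only through the E14 retinas, so its fall was largely fixed in advance. The POU4F genes are paralogs. Per the study's methods, only properly paired fragments that met a minimum mapping quality were counted. How this acted on reads that fit several POU4F genes was not examined here.

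**Figure D2:**
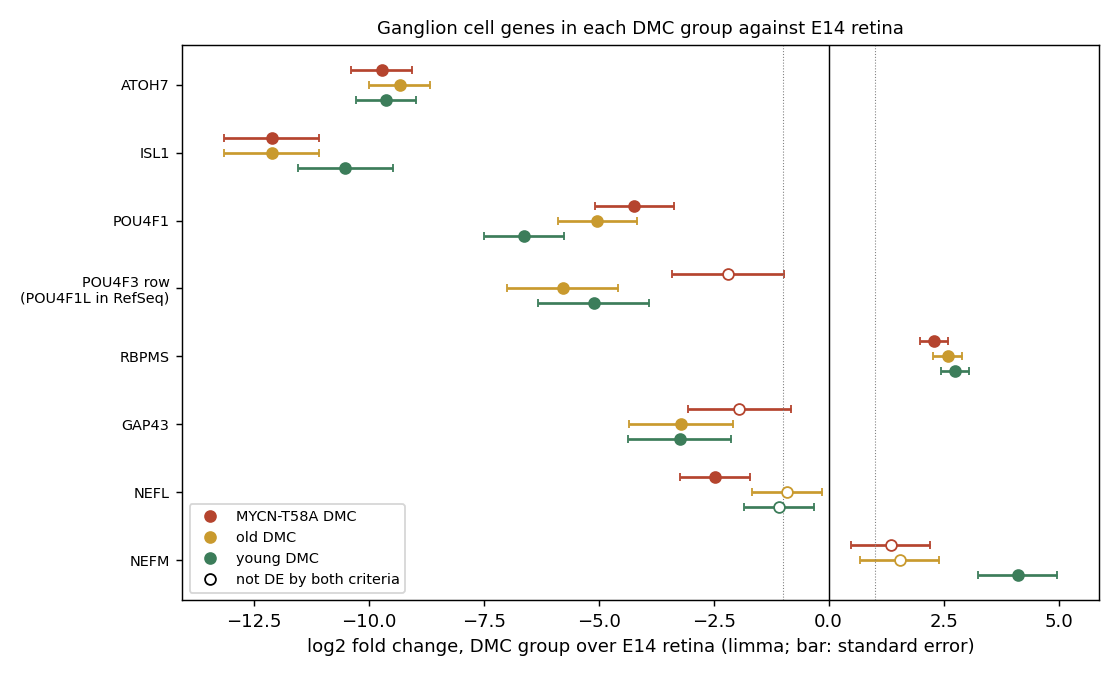
Log2 fold change over E14 retina (limma, bar: standard error) of the 8 ganglion cell genes tested, for MYCN-T58A, old and young DMC cells, with filled points for DE genes and open points for the rest. ATOH7 and ISL1 lie between -12.11 and -9.33, RBPMS between 2.29 and 2.75 in all 3 groups, and NEFM at 4.11 in young DMC cells, where it is DE.

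RBPMS, an RNA-binding protein used as a pan-ganglion cell marker in the mammalian retina, went in the other direction. It had 366, 685 and 558 normalized counts in DMC4, DMC5 and DMC6, 440, 758 and 777 in DMC1, DMC2 and DMC3, and 843, 609 and 699 in DMC8, DMC9 and DMC10, against 117, 105 and 94.6 in the E14 retinas. All 9 lines were above all 3 retinas, as were 21.6% of the genes tested. RBPMS rose 5.08-fold in MYCN-T58A (log2 fold change 2.29 ± 0.31, limma adjusted p = 1.14e-04), 6.24-fold in old (2.59 ± 0.31, 5.21e-05) and 6.80-fold in young DMC cells (2.75 ± 0.31, 3.49e-05). It was called in all 9 processing alternatives and in every fit that left out 1 library, in each of the 3 comparisons.

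Its paralog RBPMS2, listed by RefSeq with RBPMS as an old name, fell. RBPMS2 had 21.2, 26.3 and 3.45 normalized counts in DMC4, DMC5 and DMC6, 11.6, 52.6 and 46.9 in DMC1, DMC2 and DMC3, and 11.8, 26.1 and 22.2 in DMC8, DMC9 and DMC10, against 584, 540 and 531 in the E14 retinas. No line reached the lowest retina for RBPMS2, and no line came down to the highest retina for RBPMS. The log2 fold changes of RBPMS2 were -5.31 ± 0.75, -4.12 ± 0.75 and -4.79 ± 0.75 in MYCN-T58A, old and young DMC cells (limma, adjusted p = 1.57e-04, 8.88e-04 and 3.26e-04). RBPMS2 was singled out for its shared name after its values were seen.

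GAP43, a membrane protein of growing axons, was detected in all 9 lines over a wide range. It had 238, 23.9 and 791 normalized counts in DMC4, DMC5 and DMC6, 25.0, 194 and 65.7 in DMC1, DMC2 and DMC3, and 24.7, 155 and 77.6 in DMC8, DMC9 and DMC10, against 713, 604 and 615 in the E14 retinas. DMC6 was above every retina and the other 8 lines were below. GAP43 fell in old (log2 fold change -3.20 ± 1.13, limma adjusted p = 0.0321) and in young DMC cells (-3.24 ± 1.13, 0.0309), and both calls are close to the threshold. Either call was lost when 5 of the 6 libraries of that comparison were left out one at a time: without DMC1, DMC3 or any of the 3 E14 retinas the adjusted p in old cells was 0.0701 to 0.112, and without DMC8, DMC10 or any E14 retina that in young cells was 0.0626 to 0.114. In MYCN-T58A DMC cells the value was -1.94 ± 1.13 (adjusted p = 0.167), without DMC6 it was -3.06 (adjusted p = 0.0361), and without DMC5 it was -0.56 (0.611).

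NEFL and NEFM encode the light and medium subunits of the neurofilament, which assemble together in axons, and they are neighbouring genes in the RefSeq annotation. Their levels moved apart in the lines. NEFL had 378, 1544 and 161 normalized counts in DMC4, DMC5 and DMC6, 3223, 661 and 1159 in DMC1, DMC2 and DMC3, and 1273, 875 and 1511 in DMC8, DMC9 and DMC10, against 1444, 2652 and 4231 in the E14 retinas. The retinas themselves spanned a wide range, DMC5, DMC1 and DMC10 lay inside it and the other 6 lines below it. NEFL fell in MYCN-T58A DMC cells (log2 fold change -2.47 ± 0.76, limma adjusted p = 0.0172), a call lost without DMC6 (-1.73, adjusted p = 0.0712) and without E14 retina 3 (-2.10, 0.0678). Without DMC5 it was -3.35 (0.00119). The values of -0.90 ± 0.76 in old and -1.09 ± 0.76 in young DMC cells were not DE (adjusted p = 0.339 and 0.252).

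NEFM had 656, 1778 and 101 normalized counts in DMC4, DMC5 and DMC6, 369, 339 and 1429 in DMC1, DMC2 and DMC3, and 4133, 2214 and 4064 in DMC8, DMC9 and DMC10, against 219, 160 and 203 in the E14 retinas. Of the 9 lines, 8 were above every retina and DMC6 was below every one, and the young lines were the 3 highest. NEFM rose 17.9-fold in young DMC cells (log2 fold change 4.11 ± 0.85, limma adjusted p = 0.00195). The values of 1.54 ± 0.85 in old and 1.35 ± 0.85 in MYCN-T58A DMC cells were not DE (adjusted p = 0.149 and 0.204). Without DMC6 both passed the test, at 1.54 (adjusted p = 0.0364) in old and 2.48 (0.00736) in MYCN-T58A cells, whereas without DMC5 the value in MYCN-T58A cells was 0.42 (0.656). DMC6 is not an old line, and leaving it out changes the old value only through the spread that the groups share.

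The ratio of NEFM to NEFL reads within a library, a measure free of library scaling that was chosen after the values were seen, was 1.74, 1.15 and 0.629 in DMC4, DMC5 and DMC6, 0.114, 0.513 and 1.23 in DMC1, DMC2 and DMC3, and 3.25, 2.53 and 2.69 in DMC8, DMC9 and DMC10, against 0.152, 0.0604 and 0.0479 in the E14 retinas. The young lines had the highest ratios and 8 of the 9 lines exceeded all retinas, with the old line DMC1 inside the retinal range. Among the other neuronal intermediate filament genes, NEFH, the heavy subunit, rose in old (log2 fold change 1.60 ± 0.41, limma adjusted p = 0.00657) and young DMC cells (1.38 ± 0.41, 0.0146), and its value in MYCN-T58A cells was 0.63 ± 0.41 (adjusted p = 0.210). INA, alpha-internexin, fell in young DMC cells (-1.61 ± 0.49, 0.0157), with values of -0.49 and -1.14 in MYCN-T58A and old cells that were not DE (0.417 and 0.0680). PRPH, peripherin, was DE in none of the 3 groups, with log2 fold changes of 0.21, 0.04 and -1.08 in MYCN-T58A, old and young cells (adjusted p = 0.797, 0.967 and 0.172).

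**Figure D3:**
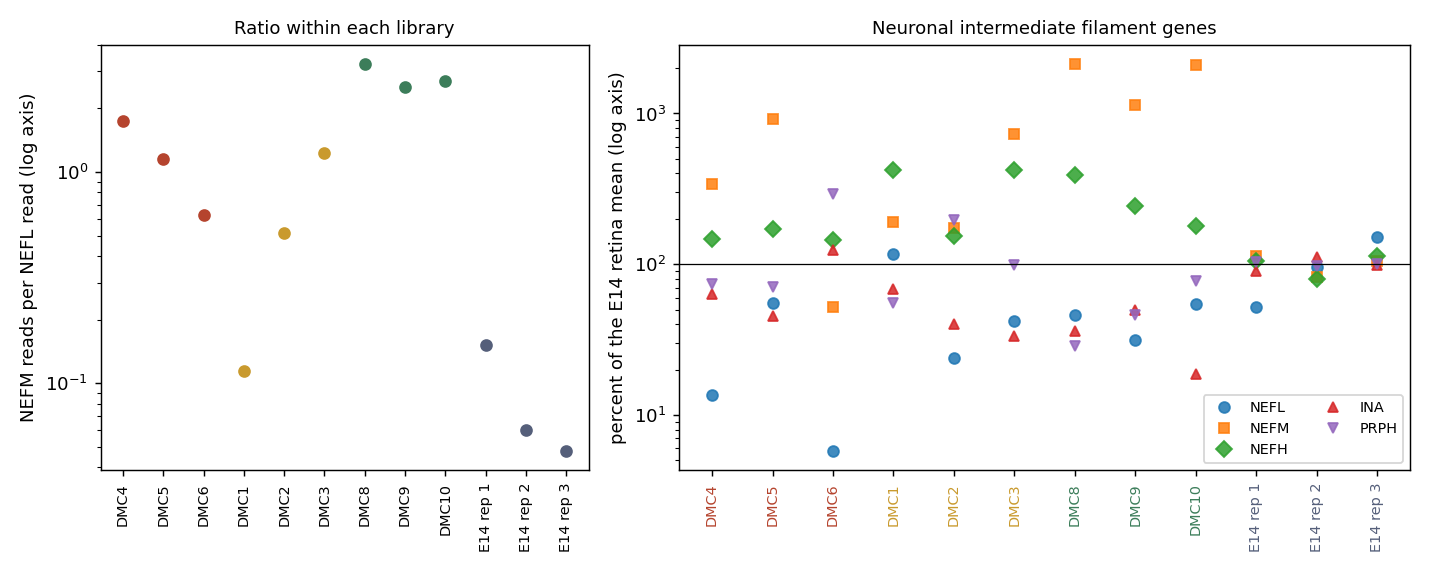
Left, NEFM reads per NEFL read in each library (log axis), with MYCN-T58A DMC, old DMC and young DMC lines left of E14 retina; right, normalized counts of NEFL, NEFM, NEFH, INA and PRPH as a percent of the E14 retina mean (log axis, line at 100). The ratio is 2.53 to 3.25 in young lines and 0.0479 to 0.152 in E14 retina, and NEFL stays near or below the retinal mean where NEFM lies above it in 8 lines.

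Long culture was addressed by comparing old with young DMC cells. These are different lines and not the same lines sampled again, so time in culture cannot be told apart from other differences between the lines. No ganglion cell gene was DE (0 of 8), where 0.196% of all genes were DE and 1428 genes (9.34%) had an unadjusted p under 0.05. NEFM came closest, with 369, 339 and 1429 normalized counts in the old lines and 4133, 2214 and 4064 in the young lines. These groups do not overlap, as was so for 8.03% of all genes in this direction, and the log2 fold change was -2.56 ± 0.85 (limma, unadjusted p = 0.0115, adjusted p = 0.337). NEFM was the only one of the 8 with an unadjusted p under 0.05 here. RBPMS, GAP43 and NEFL gave -0.16 ± 0.31, 0.04 ± 1.13 and 0.18 ± 0.76, and their groups overlapped. ATOH7, ISL1, POU4F1 and POU4F1L had too few reads in these lines to be compared.

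The T58A mutation was addressed by comparing MYCN-T58A with old DMC cells. Here too the lines differ, and the mutation cannot be told apart from other differences between them. Again 0 of the 8 genes were DE, where 0.0393% of all genes were DE and 3016 genes (19.7%) had an unadjusted p under 0.05. The largest values were those of POU4F1L (log2 fold change 3.59 ± 1.21, limma unadjusted p = 0.0122, adjusted p = 0.152), which had reads in DMC4 and DMC6 and none in an old line, and NEFL (-1.57 ± 0.76, adjusted p = 0.278). POU4F1L alone had an unadjusted p under 0.05. DMC5 decided this comparison. Without it, the MYCN-T58A group held only DMC4 and DMC6, the lines least like the old lines over all genes tested. In that fit 2620 genes (17.1%) were DE instead of 6, and so were POU4F1L (5.39, limma adjusted p = 7.33e-04) and NEFL (-2.45, 0.0215). GAP43 stood at 1.27 ± 1.13 with all lines and 2.64 without DMC5 (adjusted p = 0.545 and 0.0545). NEFM stood at -0.20 ± 0.85 with all lines and -1.12 without DMC5, and was DE in neither fit. RBPMS stood at -0.30 ± 0.31 with all lines. ATOH7, ISL1 and POU4F1 had too few reads in these lines to be compared, so they could hardly have been DE here.

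Line by line, DMC4 and DMC6 lay apart from the other 7 lines in some ganglion cell and axonal genes and not in most, which is described here without a test. Of 40 related regulator and neuronal genes, 8 (20%) were higher in both than in the other 7 lines and 2 (5%) lower, where this was so for 14.4% and 14.9% of all genes tested. As a percent of the E14 retina mean, POU4F1L was at 155 in DMC4 and 35.7 in DMC6 and at 2.03 or less in each of the others. GAP43 was at 37.0 and 122.9 in DMC4 and DMC6 and between 3.71 and 30.2 in the others. NEFL was at 13.6 and 5.79 in these lines and at 23.8 or more in the others. From the lists of related genes, and chosen after their values were seen, MAP1B, a microtubule-associated protein of growing axons, stood at 197 and 159 percent in DMC4 and DMC6 and at 16.5 or less in the other 7 lines. MYT1L, a pan-neuronal zinc finger factor, stood at 29.5 and 51.2 percent, against 6.17 or less. ELAVL4, a neuronal RNA-binding protein, stood at 191 and 168 percent, against 18.8 to 85.01. POU4F1 at 19.8 percent, BARHL2 at 36.1 percent and EBF3 at 49.7 percent were highest in DMC6. Other list genes went the other way: ISL2 and NEFH were lower in both lines than in the other 7. ATOH7 and ISL1 were not part of this pattern, with at most 2 reads and 0 reads in DMC4 and DMC6.

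Cone genes moved with this split, and 7 of 9 were lower in both DMC4 and DMC6 than in the other 7 lines. The summed normalized count of 9 cone photoreceptor genes was 12663 in DMC4 and 16360 in DMC6, against 43953 to 82775 in the other 7 lines, DMC5 included at 76094, and 46747 to 54000 in E14 retina. RXRG, a nuclear receptor of early cones, was at 1710 and 1312 normalized counts in DMC4 and DMC6 and at 13563 to 31908 in the other lines. It held 31908 of the sum in DMC5. ARR3 did not follow this split: it was at 349, 136 and 150 in DMC4, DMC5 and DMC6 and at 1009 to 10123 in the old and young lines. Nor did PDE6H, at 5118 and 6801 in DMC4 and DMC6 and 2456 to 12712 in the other lines, against 290 to 413 in E14 retina. PDE6C was lower in DMC4 and DMC6 (189 and 217) than in the other lines but above the 11.4 to 19.5 of E14 retina. The summed count of 13 amacrine and horizontal cell genes was 21066 and 15450 in DMC4 and DMC6 and 5362 to 9749 in the other lines, but the glycine transporter gene SLC6A9 alone held 19995 and 13942 of it. The other 12 genes summed to 1071 in DMC4 and 1508 in DMC6, below the 1558 to 3456 of the other lines. LHX1 alone held 847 and 395 of these 2 sums and 587 to 3082 in the other lines, so their order leans on LHX1. DMC6 was the lowest of the 9 lines for LHX1 but the highest for GAD2 (495), NEUROD6 (150) and PTF1A (60.9). GAD2 in DMC6 was also above the E14 retinas (121 to 157), whereas NEUROD6 and PTF1A were below them. Gene by gene, 2 of the 13 were higher in both DMC4 and DMC6 than in the other 7 lines and 1 was lower. PRDM13, an amacrine cell factor, had 0 reads in all 9 lines. The part of other cell types in the ganglion cell gene values was not tested.

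**Figure D4:**
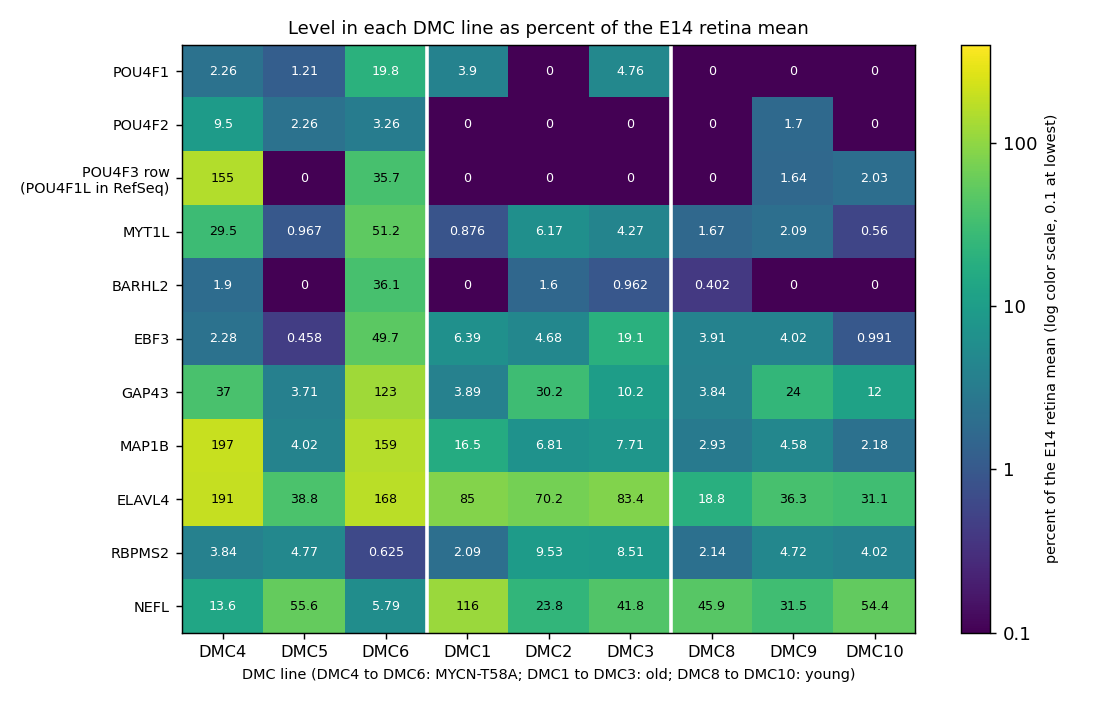
Level of 11 ganglion cell and axonal genes in each of the 9 DMC lines as a percent of the E14 retina mean (columns: MYCN-T58A lines DMC4 to DMC6, old lines DMC1 to DMC3, young lines DMC8 to DMC10; log color scale, numbers are percents). DMC4 and DMC6 stand out for POU4F1L (155 and 35.7), MYT1L (29.5 and 51.2), MAP1B (197 and 159) and ELAVL4 (191 and 168), and DMC5 does not share this. The related genes shown were chosen after their values were seen.

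Other genes of the ganglion cell program were counted from a list of 20 further regulators. The counts of this and the following lists stand beside shares over all genes of 19.6% higher and 24.8% lower in MYCN-T58A, 20.3% and 23.5% in old and 20.5% and 23% in young DMC cells, and beside medians over all genes of -0.10, -0.05 and -0.03. In MYCN-T58A DMC cells 0 rose, 12 fell and 8 did not pass the test, with a median log2 fold change of -2.92. In old DMC cells 1 rose, 13 fell and 6 did not pass (median -2.85), and in young DMC cells 1 rose, 12 fell and 7 did not pass (median -2.65). IRX4, an Iroquois homeodomain factor, had 0 reads in 8 lines and 1 in DMC6, against 228 to 340 normalized counts in E14 retina. Its fitted log2 fold change was -7.80 in MYCN-T58A cells and -8.17 in old and young cells (limma, adjusted p = 8.02e-07, 7.12e-07 and 6.22e-07). NHLH2, a neuronal helix-loop-helix factor, fell with -7.84, -8.67 and -7.91 in MYCN-T58A, old and young cells (limma, adjusted p = 4.24e-05, 2.30e-05 and 4.08e-05). IRX4, NHLH2, POU4F2, IRX2 and DLX1, among others of this list, reached the minimum for testing only through the E14 retinas. Their falls were thus largely fixed in advance, and the counts of this list are a description only. KLF7, a zinc finger factor tied to axon outgrowth, was the gene that rose in old (1.23, adjusted p = 0.0241) and young cells (1.17, 0.0295), and it stood at 0.06 in MYCN-T58A cells (0.916). Both KLF7 calls were lost without TMM scaling factors and without any 1 E14 retina, that in old cells also without DMC2 or DMC3 and that in young cells without DMC8 or DMC9 or with the deposited values as they stand. With a minimum of 50 reads, 14 of the 20 regulators were tested, of which 9, 8 and 7 fell in MYCN-T58A, old and young cells.

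Of 20 further neuronal and axonal genes tested, 0 rose and 9 fell in MYCN-T58A, 1 rose and 10 fell in old and 1 rose and 14 fell in young DMC cells, the gene that rose being NEFH, whose call in young cells was lost without TMM factors, DMC8 or E14 retina 2. The medians were -1.70, -1.71 and -2.16. The medians of these 2 lists stayed below 0 in every alternative, scalings included. Genes that reached the minimum for testing only through the E14 retinas pull these medians down, so this is a description only. NELL2, a secreted neuronal glycoprotein, fell with -2.998, -4.26 and -5.76 in MYCN-T58A, old and young cells (limma, adjusted p = 0.0105, 0.00137 and 1.87e-04). NRN1, neuritin, had at most 4.49 normalized counts in any line, against 148 to 238 in E14 retina, and fell with -7.25, -6.96 and -5.71 (limma, adjusted p = 3.04e-06, 4.26e-06 and 1.45e-05). NRN1 too reached the minimum for testing only through the E14 retinas, so its fall was largely fixed in advance. The pan-neuronal tubulin TUBB3 was DE in none of the groups, with -0.40, -0.51 and 0.37 in MYCN-T58A, old and young cells. In the comparisons of old with young and of MYCN-T58A with old DMC cells, 0 of these 40 genes were DE, where 0.196% and 0.0393% of all genes were. Without DMC5, 4 were higher and 3 lower in MYCN-T58A than in old cells, 7 of 40, a share close to that of all genes in the same fit (17.1%).

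Upstream of ATOH7, 13 progenitor and neurogenic genes were tested, of which 0 rose and 11 fell in MYCN-T58A, 1 rose and 8 fell in old and 0 rose and 7 fell in young DMC cells. PAX6, an eye field factor that activates proneural genes, fell with log2 fold changes of -12.79, -11.73 and -10.74 in MYCN-T58A, old and young cells (limma, adjusted p = 5.72e-06, 1.00e-05 and 1.80e-05). PAX6 and several genes of the following lists, such as TFAP2A, PRDM13 and HBA1, reached the minimum for testing only through the E14 retinas. Their falls were thus largely fixed in advance. Many markers of other cells in the E14 tissue, but not all, were lower in the lines as well. Of 13 amacrine and horizontal cell genes, 8 fell in MYCN-T58A, 8 in old and 9 in young cells, with 1 rising in MYCN-T58A cells. LHX1 and ONECUT1 were not among those that fell. LHX1 had 395 to 1317 normalized counts in MYCN-T58A, 587 to 3082 in old and 1583 to 2159 in young lines, against 537 to 920 in E14 retina. ONECUT1 had 117 to 189, 259 to 335 and 222 to 268, against 136 to 233. Of 8 bipolar and Müller glia genes, 7 fell in each group. Of 12 genes of blood, vessel, connective tissue, immune cells and pigment epithelium, 6, 7 and 6 fell and 2, 3 and 3 rose. The globin genes HBA1 and HBAD had at most 7.07 normalized counts in any line and 381 to 3250 in E14 retina. PMEL, a pigment cell gene, rose with 7.84, 8.78 and 8.73 in MYCN-T58A, old and young cells. The pigment genes did not all move this way. TYR had 130 reads in DMC4, 14 in DMC6 and 0 to 2 in each other line, against 11, 15 and 8 in the E14 retinas. RPE65 was higher in normalized counts in every line than in every E14 retina. Of 9 cone genes, 2 rose and 2 fell in MYCN-T58A, 3 rose and 2 fell in old and 3 rose and 0 fell in young cells. Without DMC5, 6 cone genes fell in MYCN-T58A cells, and the 2 falls in old cells were lost without DMC2, DMC6, any young line or any E14 retina. The part of these differences in cell makeup in the ganglion cell gene values was not tested.

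The genes whose log2 normalized counts followed each ganglion cell gene most closely over the 12 libraries (Pearson's r, all libraries weighted equally, which share the split between lines and retina) are given as a description. ATOH7 was most like GPR21, MEGF11 and PRLH (r = 0.99 each), with 338 genes at r of 0.95 or more. ISL1 was most like RD3L (1.00), SOX3 (1.00) and TBX5 (0.99), with 284 such genes, and RBPMS was most like ERCC6L, MRPS22 and NUCKS1 (0.99 each), with 309. POU4F1 was most like SS18L1, FLRT3 and STX10 (0.98 each) and POU4F1L most like PRDM4, PPT1 and SIN3B (0.99 each). Few genes followed the axonal members: 5 reached 0.95 with GAP43 (AXL at 0.97 first), 1 with NEFL (PIGW at 0.97) and 0 with NEFM (ZADH2 at 0.94 first). Over the 9 lines alone, GAP43 was most like EDA, AATK and MGEA5 (0.98, 0.97 and 0.96), NEFL most like WFS1, PIGW and RAMP2 (0.97, 0.97 and 0.96), NEFM most like the microRNA gene gga-mir-1722, TMEM130 and DYNC1I1 (0.95 each), and RBPMS most like METTL24, TUBD1 and RGS10 (0.95, 0.95 and 0.94). The value for gga-mir-1722 rests on only 2 to 29 reads a line.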

How the data were processed

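Poly(A)-selected, strand-specific RNA sequencing libraries (TruSeq) were made from 12 samples, 3 in each of 4 groups taken from the GEO labels. Per the study's methods and processing notes, the authors aligned reads with nf-core/rnaseq to galGal6, counted fragments with featureCounts 2.0.0, normalized with edgeR and deposited gene counts divided by TMM factors, here treated as signal values. The divisor in the deposited signal changes from value to value: 100% of the 205632 values above 0 are whole numbers (tolerance 1e-04) over 1 of 12 constants, which equal the 12 TMM factors, and 17190 values (8.36%) carry their own library's factor. Reads were recovered by multiplying back, and normalized counts are reads over library total times own TMM factor, at the mean of that product. Such values were not tested with a count model.

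limma 3.58.1 (R 4.3.3) with a mean-variance trend was fitted on log2(normalized count + 1) to all 12 libraries in 4 groups, for genes with at least 10 reads in at least 3 libraries. Fold changes on this scale understate changes of low genes. A fold against a group at 0 uses 3 reads per library as floor. The steps were tested on simulated data. Alternatives covered scaling, pseudocount (0.5 and 10), filter, voom weights, only the 6 libraries compared and leaving out each library. p-values measure the spread between lines or retinas. Named genes of each further list are the 2 largest falls and the 2 largest rises among genes DE in young DMC cells; some of them are not reported here. Correlations with members use all genes tested that have a symbol. Genes without a symbol were named through their Entrez ID in RefSeq (14940 of 15416 IDs matched). Members and gene lists were chosen with earlier results of these data known. Sequences were not used here.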

Additional observations from a re-analysis of the deposited data

How the results depend on the processing

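Over 9 alternatives, the log2 fold changes of the ganglion cell genes kept direction and side of the threshold in 294 instances, became DE in 2 and reversed in 1. NEFL in young (-1.09, limma adjusted p = 0.0381) and NEFM in old DMC cells (1.54, 0.0422) were DE when only the 6 libraries compared were fitted. GAP43 in old over young DMC cells was -0.016 with voom weights, where the value of 0.04 is near 0 in any case. Leaving out 1 library gave 371 unchanged calls, 12 lost, 6 gained and 7 reversed. The reversals were in values that were never DE: in old over young DMC cells, GAP43 ranged from -0.71 to 0.75, NEFL from -0.44 to 0.70 and RBPMS from -0.30 to 0.11, and in MYCN-T58A over old DMC cells NEFM ranged from -1.12 to 0.94. The members DE numbered 4 to 6 in MYCN-T58A, 5 to 7 in old and 6 to 7 in young DMC cells against E14 retina, 0 in every such fit of old over young, and 0 to 2 in MYCN-T58A over old cells.

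The background counts moved more. In old over young cells, 30 genes were DE, 19 with a filter of 50 reads, 1 with only the 6 libraries compared and 5 to 98 without 1 library. In MYCN-T58A over old cells 6 were DE, 105 with the deposited values as they stand, 13 with a pseudocount of 10, 10 with no filter beyond 1 read, 35 with only the 6 libraries compared and 0 to 2620 without 1 library, the highest without DMC5; the cause was not tested. Without TMM factors the median over all genes of the log2 fold change against E14 retina was -0.32, -0.38 and -0.45 in MYCN-T58A, old and young cells, where it was -0.10, -0.05 and -0.03 with them. The DE genes that rose and fell then numbered 2424 and 4349 in MYCN-T58A cells (2999 and 3795 with the factors), 2316 and 4494 in old cells (3106 and 3588) and 2200 and 4653 in young cells (3137 and 3512). With the deposited values as they stand, they were 2076 and 4694, 2830 and 3751, and 2489 and 4060 in MYCN-T58A, old and young cells.

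No paired analysis was possible because the labels give no pairing between the compared groups. Genes with few reads in the lines (ATOH7, ISL1, POU4F1, POU4F1L and POU4F3) were limited by depth: below 3 reads a level cannot be told from 0, and differences among the lines at that level were not detectable. The calls of GAP43 in old and young and of NEFL in MYCN-T58A cells depended on single libraries, E14 retinas included, and that of NEFM in young cells did not.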
